A study of Rattus norvegicus with 7 samples.

Results

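The suprabasal keratins are described here as 9 genes, Krt1, Krt2, Krt4, Krt10, Krt13, Krt77, Krt78, Krt79 and Krt80, out of 17246 genes in a table of expression in the rat meibomian gland. They were found in the table by symbol, and all 9 were present and passed the filter on low counts. The set was selected on the UVB and control expression values of these same libraries, with Krt77 as its leading gene. Every value below that sets UVB against control, calls included, is for that reason a description of the members. No p-value is given for them.

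The meibomian gland is the oil gland of the eyelid. RNA from glands of wild-type female Sprague-Dawley rats aged 3 months was sequenced in 7 libraries. In the 3 UVB libraries the upper eyelids had been shaved and irradiated with ultraviolet B light at 300 mJ/cm2, for 5 min per day on 5 days, and the 4 control libraries are labelled as having had no treatment. The labels repeat the irradiation protocol for every sample, so whether control lids were shaved is not stated, nor is the time from the last exposure to dissection. The labels do not say which rat each library came from, and the number in each column name matches no label. The p-values given below for other genes therefore measure the spread between these libraries.

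Keratins are the intermediate filament proteins of epithelial cells, and a filament is built from pairs of an acidic type I and a basic type II keratin. Basal cells of stratified epithelia make Krt5 and Krt14. Cells that move up from the basal layer switch to other pairs, Krt1 with Krt10 in skin-type epithelium and Krt4 with Krt13 in mucosal epithelium such as conjunctiva. The meibomian gland has both lipid-filled secretory cells, the meibocytes, and a duct lined by stratified epithelium that opens at the lid margin next to epidermis.

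The promoters of Krt77 and of its relatives are shown first because Krt77 stood apart from its neighbours in the type II keratin cluster. Among the keratin genes in the table, Krt77 lies between Krt1 and Krt76 in the gene order of RefSeq assembly GRCr8. RefSeq promoter sequences of that assembly were found for 6 of the 9 members, Krt2, Krt4, Krt10, Krt77, Krt78 and Krt79. Printed below are the 250 bases before the annotated start, 5′ to 3′ on the minus strand, which is the gene strand. They are those of Krt77 (chr7:134880777-134881026), Krt2 (chr7:134826737-134826986), the neighbour Krt76 (chr7:134904163-134904412) and the type I keratin Krt10 (chr10:84839161-84839410). Capitals mark matches to any of 5 motifs. The TATA box TATAAA was searched on the gene strand, as was its variant TATATA, which can overlap it. The AP-1 site TGAGTCA, the letters CACCC that KLF factors bind, and the C/EBP letters TTGCNNAA, where N is any base, were searched on both strands. Overlapping matches are joined in capitals.
Krt77: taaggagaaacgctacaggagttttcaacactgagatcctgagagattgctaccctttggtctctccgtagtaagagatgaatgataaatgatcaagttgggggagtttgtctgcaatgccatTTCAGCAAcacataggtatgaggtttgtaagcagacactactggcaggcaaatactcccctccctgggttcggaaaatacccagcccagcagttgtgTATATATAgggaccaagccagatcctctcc
Krt2: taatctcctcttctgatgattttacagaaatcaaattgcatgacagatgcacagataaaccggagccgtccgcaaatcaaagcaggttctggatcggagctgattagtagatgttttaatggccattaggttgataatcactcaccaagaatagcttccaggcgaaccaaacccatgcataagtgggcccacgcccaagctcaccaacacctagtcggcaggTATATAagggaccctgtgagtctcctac
Krt76: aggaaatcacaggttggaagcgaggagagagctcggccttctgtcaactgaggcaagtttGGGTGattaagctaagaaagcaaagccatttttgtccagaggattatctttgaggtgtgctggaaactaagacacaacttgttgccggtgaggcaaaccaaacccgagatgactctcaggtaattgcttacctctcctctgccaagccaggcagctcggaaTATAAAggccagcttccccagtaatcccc
Krt10: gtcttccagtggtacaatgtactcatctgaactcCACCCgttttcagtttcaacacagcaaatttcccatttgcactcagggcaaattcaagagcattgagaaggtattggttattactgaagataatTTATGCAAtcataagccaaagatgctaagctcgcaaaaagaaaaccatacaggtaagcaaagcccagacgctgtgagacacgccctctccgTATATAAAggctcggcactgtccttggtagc

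Krt77 and Krt2 had TATATA and no TATAAA, with matches that began 30 and 28 bases before the start of Krt77 and 28 bases before that of Krt2. Krt76 and Krt10 had TATAAA, which began 29 bases before the start in both, and in Krt10 it overlapped a TATATA that began at 31 bases. Over all 33469 RefSeq promoters of the same length, 5.45% held TATATA and 8.06% held TATAAA. TTGCNNAA was found in Krt77 at 127 bases, in Krt10 at 122 bases and in Krt4 at 113 bases before the start. It was held by 9.22% of all promoters. TGAGTCA, held by 4.05% of all promoters, was in none of the 4 printed sequences and was present in Krt4 at 249 bases before the start. CACCC, held by 49.2% of all promoters, was found in Krt76, Krt10, Krt78 and Krt79. Krt79 has several RefSeq promoter entries, and the entry at chr7:134942607-134942856 held no CACCC. That entry held TATAAA at 245 bases before its start. A match describes letters in this window only, and the series has no measurement of binding at these sites.

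Library totals ran from 20680237 to 28784941 counts. The expression of each gene is given as CPM, the count scaled to a common library total after TMM scaling factors, for comparisons between libraries, and as the deposited TPM, which corrects for transcript length, for comparisons between genes. Scd and Awat2, lipid enzymes of meibocytes, ranked first and second of all genes by mean control TPM, which matches the labelled tissue. A gene is called here when its edgeR quasi-likelihood adjusted p, over the 13709 genes tested, was under 0.05. Of those genes, 6.74% were called lower in UVB libraries and 6.30% were called higher. In 13.8% of them every UVB library lay below every control library, and in 12.8% every UVB library lay above every control.

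Of the 9 suprabasal keratins, Krt77, Krt80 and Krt2 were called lower and 0 were called higher in UVB libraries. The same 3 were those with every UVB library below every control, and 0 had every UVB library above. The median log2 fold change of the 9 was 0.13, beside -0.0058 for all genes tested, and 6 of the 9 values were positive. Nothing is read from these counts against the shares over all genes, because the members were chosen with this contrast known.

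**Figure D1:**
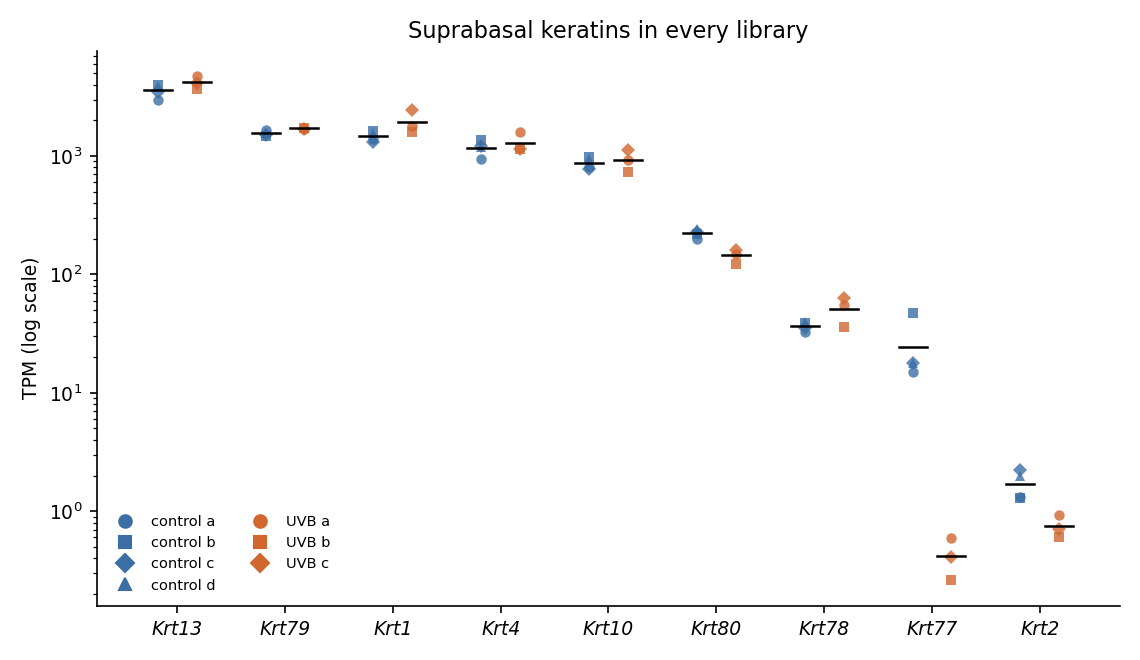
TPM of the 9 suprabasal keratins in every library, on a log axis, with control libraries in blue, UVB libraries in orange, a marker shape per library and a black bar at the group mean. Krt77 falls from 14.97 or more in every control to 0.59 or less in every UVB library, while among the 6 members that were not called only Krt79 has groups that do not overlap in TPM.

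By TPM, which allows genes to be ordered, Krt13 was the most abundant member in controls at 3597 ± 452 (SD, n = 4) and ranked 12 of all genes. Krt79 at 1555 ± 75.6, Krt1 at 1471 ± 148, Krt4 at 1180 ± 178 and Krt10 at 877 ± 103 TPM followed. The control ranges of Krt79 and Krt1, of Krt1 and Krt4, and of Krt4 and Krt10 overlapped. Within libraries, Krt79 was above Krt1 in 3 of 4 controls, whereas Krt1 was above Krt4, and Krt4 above Krt10, in 4 of 4 controls and in 3 of 3 UVB libraries. Krt80 came next at 223 ± 18.3 TPM, clear of its neighbours. Krt78 at 36.4 ± 3.27 and Krt77 at 24.4 ± 15.2 TPM overlapped, and Krt2 was lowest at 1.70 ± 0.465 TPM. The mucosal and the skin-type pairs were thus both present at high level in the dissected tissue.

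In UVB libraries Krt13 again came first at 4188 ± 519 TPM (SD, n = 3), followed by Krt1 at 1943 ± 436 and Krt79 at 1710 ± 15.8, whose ranges overlapped. Krt77 moved to the last place at 0.42 ± 0.165 TPM, below Krt2 at 0.747 ± 0.168. The TPM summed over the 9 members was 8966 ± 798 in controls and 10262 ± 1030 in UVB libraries. The 7 sums overlapped between the groups.

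Krt77, a type II keratin known from suprabasal epidermis and sweat gland ducts, changed most. It was at 27.2, 85.0, 31.3 and 32.0 CPM in control libraries a to d and at 1.04, 0.465 and 0.732 CPM in UVB libraries a to c. The groups did not overlap, and control b stood above the other 3 controls. The counts behind these values were 582, 1821, 908 and 748 in controls and 22, 12 and 19 in UVB libraries, so the gene was still detected after irradiation. Its mean was 58.8-fold lower in UVB libraries, at 0.746 ± 0.289 against 43.9 ± 27.5 CPM, and the edgeR log2 fold change was -5.90 (SE 0.63).

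Control b widened the control spread of Krt77, with a coefficient of variation of 62.7%, but the drop did not rest on it. Without control b the log2 fold change was -5.36, and with each library left out in turn it ran from -6.18 to -5.36. Krt77 was called lower in all 7 of those fits. On the log2(TPM + 1) scale, which understates changes of low genes, the difference was -4.01.

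Krt80, a type II keratin that is widespread in differentiating epithelia and associates with desmosomes, changed far less but evenly. It was at 374, 408, 412 and 453 CPM in controls and at 274, 231 and 302 CPM in UVB libraries. The groups did not overlap, and both had a narrow spread, with means of 412 ± 32.2 and 269 ± 35.6 CPM. The log2 fold change was -0.62 (SE 0.10), a level 1.53-fold lower, and it ran from -0.71 to -0.51 with each library left out.

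Krt2, a keratin of the upper spinous and granular layers of epidermis, was at a low level in every library. It was at 1.96, 1.91, 3.17 and 2.91 CPM in controls and at 1.33, 0.890 and 1.04 CPM in UVB libraries, from counts of 42, 41, 92 and 68 against 28, 23 and 27. The groups did not overlap, yet UVB a at 1.33 CPM lay close to control b at 1.91 CPM. The log2 fold change was -1.21 (SE 0.28), and Krt2 was no longer called without control c, control d, UVB b or UVB c.

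The pair of the skin-type program did not separate the groups. Krt1, the type II partner, was at 1983, 2318, 1822 and 2238 CPM in controls and at 2476, 2316 and 3444 CPM in UVB libraries. UVB c was highest, and UVB b lay just below the highest control, so the groups overlapped. The log2 fold change was 0.39 (SE 0.15), not called by edgeR and called higher by DESeq2. Krt10, its type I partner, was at 1360, 1642, 1251 and 1577 CPM in controls and at 1492, 1221 and 1875 CPM in UVB libraries. UVB libraries held both the lowest and the highest Krt10 value. The log2 fold change was 0.070 (SE 0.15), and it turned to -0.10 without UVB c. In GRCr8 Krt10 overlaps the gene LOC134480872. Handling of strand is not given in the sources used here, so reads of both could be counted together if the annotation used for counting holds both. The other 8 members overlap no other gene in GRCr8. The submitters name build rn7 instead, and overlaps in that build were not checked.

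The mucosal pair overlapped between the groups as well. Krt13, the type I partner and the most abundant member, was at 2763, 3623, 3115 and 3599 CPM in controls and at 4229, 3430 and 3716 CPM in UVB libraries. Krt4, the type II partner, was at 913, 1319, 1135 and 1153 CPM in controls and at 1500, 1107 and 1103 CPM in UVB libraries. UVB a held the highest value of both genes, and control a the lowest. The log2 fold changes were 0.21 (SE 0.12) for Krt13 and 0.13 (SE 0.15) for Krt4, and that of Krt4 turned to -0.032 without UVB a.

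Krt78 and Krt79 lie side by side in the type II cluster. Krt78, a type II keratin of suprabasal cells, was at 73.0, 86.8, 76.4 and 88.2 CPM in controls and at 120, 80.7 and 140 CPM in UVB libraries. UVB a and UVB c were above every control, and UVB b lay inside the control range. The log2 fold change of 0.49 (SE 0.17) was not called by edgeR, but Krt78 was called higher by DESeq2 and, in edgeR, without UVB b, where it was 0.69. Krt79, a keratin known from the upper hair follicle and the ducts of sebaceous glands, was at 2033, 1807, 1800 and 1933 CPM in controls and at 2033, 2130 and 2055 CPM in UVB libraries. It was the steadiest member, with coefficients of variation of 5.90% in controls and 2.45% in UVB libraries. By CPM the groups met at control a and UVB a, and the log2 fold change was 0.13 (SE 0.077). By TPM they did not overlap, with 1480 to 1651 in controls and 1697 to 1728 in UVB libraries.

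**Figure D2:**
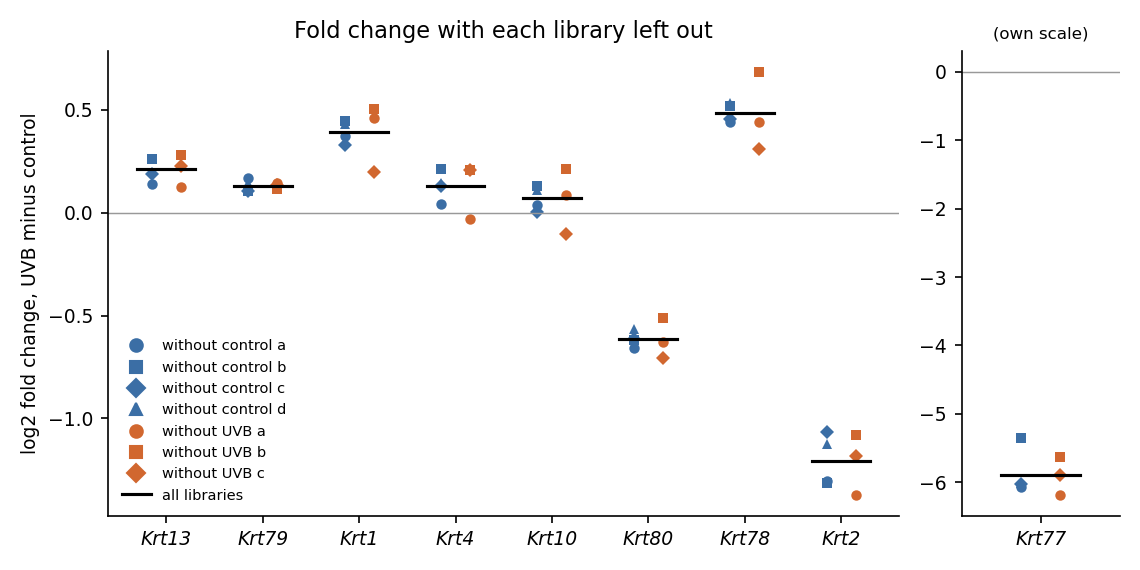
The edgeR log2 fold change (UVB minus control) of each member with every library (black bar) and with each library left out in turn (markers), with Krt77 on its own axis. Krt77 stays between -6.18 and -5.36 and Krt80 between -0.71 and -0.51, while Krt10 and Krt4 cross 0 in 1 fit each.

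The members also varied among themselves from library to library. Control b was the highest control for 5 of the 9 members, and control a the lowest for 5. Among UVB libraries UVB a was highest for 4 members, UVB c for 4 and UVB b for 1. Library c of the UVB group held the highest UVB values of Krt1, Krt10, Krt78 and Krt80, while UVB a held those of Krt2, Krt4, Krt13 and Krt77.

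Ratios within a library show how the partners of a pair stood to each other. These ratios were picked after the values had been seen. The TPM ratio of Krt1 to Krt10 was 1.71, 1.65, 1.70 and 1.66 in controls and 1.94, 2.22 and 2.15 in UVB libraries. The groups did not overlap, the means were 1.68 ± 0.0289 and 2.10 ± 0.144, and the mean log2 difference was 0.32, or 0.28 to 0.38 with each library left out. Krt1 was thus higher relative to Krt10 in each UVB library, although neither gene was called by edgeR.

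The ratio of Krt4 to Krt13 was 0.328 ± 0.0217 in controls and 0.309 ± 0.0276 in UVB libraries, and its values overlapped. For the basal pair, the ratio of Krt5 to Krt14 was 0.675 ± 0.0471 in controls and 0.481 ± 0.0330 in UVB libraries, without overlap, and Krt14 was called higher while Krt5 was not called. Krt77 amounted to 1.08%, 2.90%, 1.36% and 1.13% of the Krt1 level in controls by TPM. In UVB libraries it amounted to 0.0331%, 0.0161% and 0.0168%. Relative to its neighbour Krt1, Krt77 was thus lower in each UVB library than in any control. This ratio is free of the scaling between libraries, but it also holds any difference in Krt1.

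**Figure D3:**
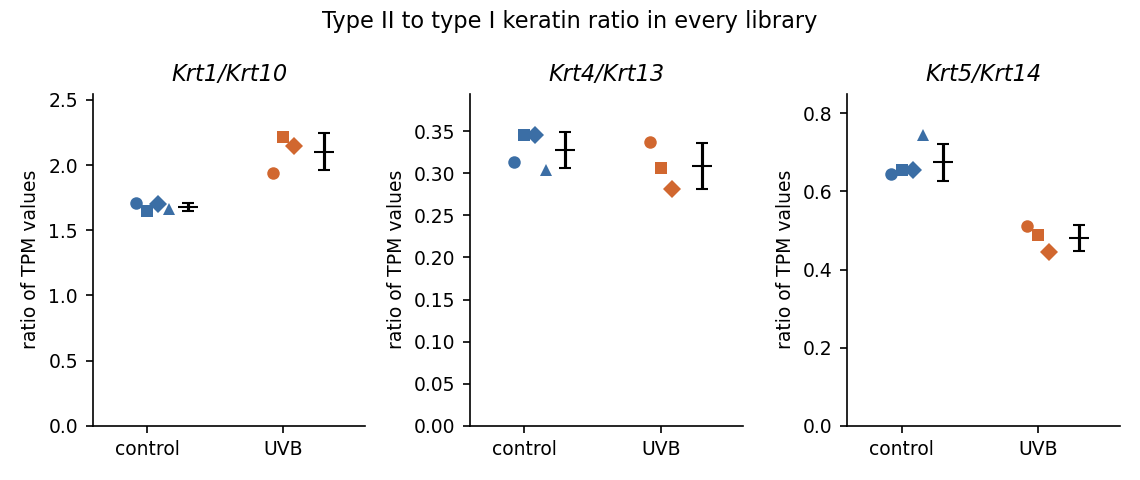
TPM ratio of a type II keratin to its type I partner in every library, with the group mean and SD beside the points and each axis starting at 0. Krt1 to Krt10 is 1.71 or less in controls and 1.94 or more in UVB libraries, Krt4 to Krt13 overlaps, and Krt5 to Krt14 is lower in UVB libraries.

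The table held 44 keratin genes, of which 42 were tested. Of these, 10 were called lower and 1, Krt14, was called higher. Over all tested genes, 6.74% were called lower and 6.30% higher. The members are among these keratins, so no enrichment is read from the counts. Among the 33 tested keratins outside the members, 7 were called lower (Krt24, Krt32, Krt35, Krt72, Krt75, Krt82 and Krt85), 29 had a negative log2 fold change, and the median was -0.93. Krt75 is known as a keratin of the hair follicle companion layer, Krt72 as one of the inner root sheath, and Krt32, Krt35, Krt82 and Krt85 as hair keratins. The count of keratins called lower ran from 5 to 22 with each library left out in turn. It was 5 without control d, UVB a or UVB b, 6 without control b and 22 without UVB c.

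Neighbours of Krt77 in the type II cluster showed no drop of that size. Krt1, on one side, had a log2 fold change of 0.39 (SE 0.15). Krt76, on the other side, a keratin of the palate and other oral epithelium, was at 14.1 ± 4.11 CPM in controls and 11.9 ± 2.18 CPM in UVB libraries, with a log2 fold change of -0.24 (SE 0.22, not called). Next to Krt2, on the side away from Krt1, Krt73 of the inner root sheath had -1.10 (SE 0.36, not called). Krt8, a simple epithelial keratin next to Krt78, had 0.32 (SE 0.59, not called). At the other end of the cluster, Krt7 beside Krt80 had -0.57 (SE 0.21, not called).

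In the type I cluster, Krt10 lay between Krt28 of the inner root sheath and Krt12 of the cornea. Krt28 had a log2 fold change of -1.20 (SE 0.34) and Krt12 of 0.98 (SE 0.43), and neither was called. Krt13 lay between the hair keratin Krt36, at -0.99 (SE 0.40), and Krt9, a keratin of palm and sole skin, at -0.36 (SE 0.43). Neither of these was called. Krt10 and Krt13 themselves were at 0.070 and 0.21.

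**Figure D4:**
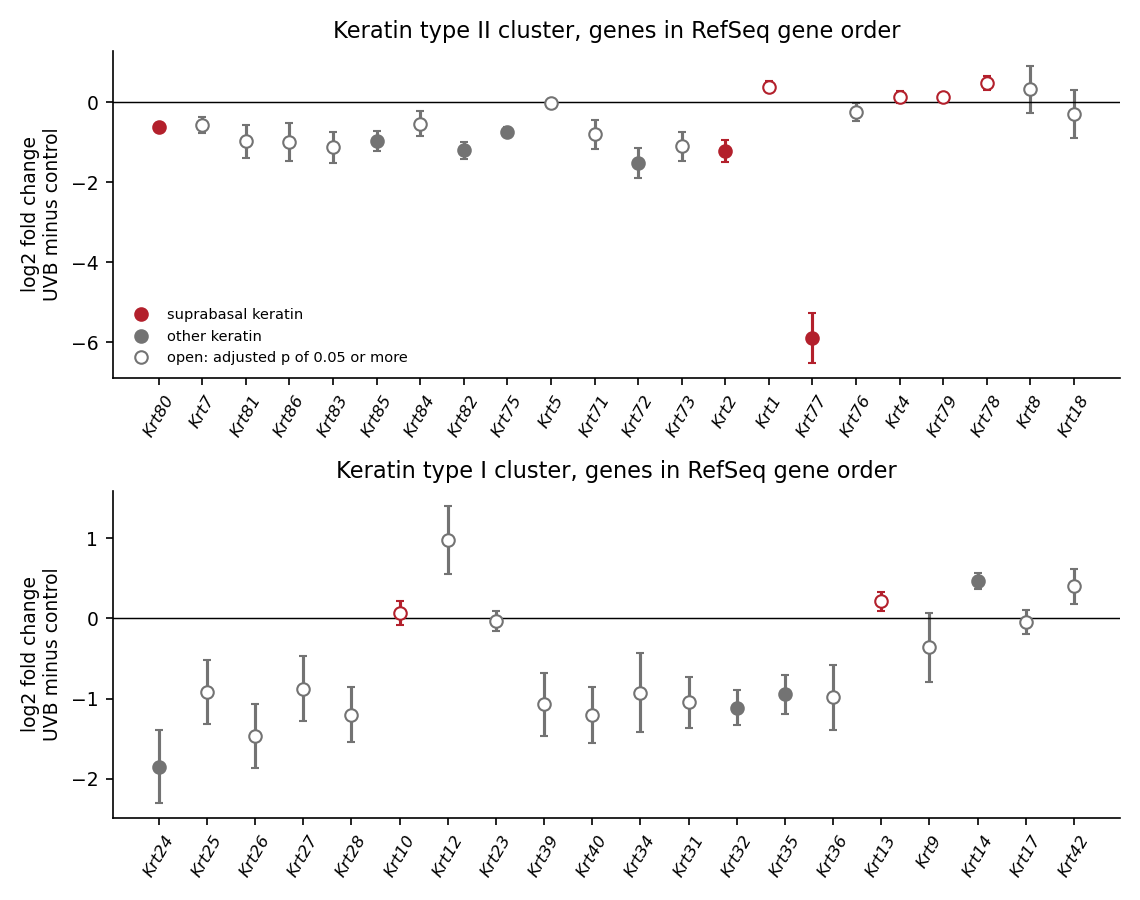
The edgeR log2 fold change (UVB minus control) of tested keratin genes in RefSeq gene order, with bars of 1 SE, members in red and other keratins in grey, filled where the gene was called. Krt77 at -5.90 lies between Krt1 at 0.39 and Krt76 at -0.24.

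Hair follicle markers include 13 of the keratins just counted, so they are no separate measure of those genes. This list and the marker lists below were chosen with earlier results of these data known. Their counts stand beside the 6.74% of all tested genes called lower and the 6.30% called higher, and no enrichment is read from them. Of 19 tested hair follicle markers, 6 were called lower and 0 higher, and the median log2 fold change was -0.96. Their summed TPM was 1238 to 1587 in controls, and 553, 449 and 1239 in UVB libraries a, b and c. The count called lower was 18 without UVB c, 3 without control c, 1 without control a, control b or UVB b, and 0 without control d or UVB a. Of the 6 markers that are not keratins, Dlx3, Hoxc13 and Msx2, transcription factors of the follicle, were called lower. Those 6 summed to 151, 137, 159 and 167 TPM in controls a to d and to 56.3, 50.1 and 128 TPM in UVB libraries a to c. UVB c was closer to the controls in these markers than UVB a and UVB b were. Krt77 was at 1.04, 0.465 and 0.732 CPM in UVB libraries a, b and c. How Krt77 relates to these markers was not tested. In a bulk sample, fewer cells of a type and less RNA per cell cannot be told apart.

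Markers of other cell types were present in every library. Interfollicular epidermis markers had 2 of 9 called lower and 0 higher, with summed TPM of 2964 to 3459 in controls and 2654 to 4199 in UVB libraries. Duct and orifice markers had 3 of 9 called higher and 4 lower, with 5024 to 6982 against 3694 to 6084 TPM. Both sets of sums overlapped between the groups, and UVB c was the highest UVB library in both, as it was for Krt1 and Krt10. With each library left out in turn, 1 to 3 interfollicular epidermis markers were called lower and 0 to 1 higher. For duct and orifice markers the counts were 1 to 3 higher and 2 to 4 lower.

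Meibocyte markers had 1 of 15 called higher and 4 lower, and their summed TPM was 49574 to 59884 in controls and 45522 to 52442 in UVB libraries. With each library left out in turn, 3 to 5 were called lower and 0 to 2 higher. The count higher was 0 without control b, control c, control d or UVB c. Conjunctiva and goblet cell markers had 1 of 6 called lower, and summed to 48.9 to 72.9 against 37.2 to 63.8 TPM. Skeletal muscle markers had 1 of 10 called lower, with 2816 to 3998 against 1803 to 3413 TPM. This count was 0 when any control or UVB b was left out, and 2 without UVB c. Fibroblast and immune cell markers had 3 of 7 and 3 of 11 called higher and 0 lower. With each library left out, 2 to 3 of either list were called higher, and 1 immune cell marker was called lower without control a. Fibroblast markers summed to 961 to 1489 TPM in controls and 1265 to 2017 in UVB libraries, and immune cell markers to 274 to 508 and 280 to 475. None of these lists' detected markers was at 0 in every library, and their part in the changes of Krt77, Krt80 and Krt2 was not tested.

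Genes that act beside the suprabasal keratins showed mixed changes. The lists below were chosen with earlier results of these data known, and their counts are read beside the 6.74% of all tested genes called lower and the 6.30% called higher. Of 24 tested genes of the granular and cornified layers, 4 were called higher and 7 lower, with a median log2 fold change of -0.24. The list shares genes with the interfollicular epidermis markers, among them Sbsn, and with the duct and orifice markers, among them Cst6 and Tgm1. Those lists are therefore no separate measure of the shared genes. Cnfn, which codes for cornifelin of the cornified envelope, rose from 53.9 ± 7.23 to 139 ± 20.9 CPM, by 1.37 on the log2 scale (SE 0.12, edgeR adjusted p = 0.0011). Tgm3, a transglutaminase that cross-links the envelope, rose by 1.35 (SE 0.17, edgeR adjusted p = 0.0048). Lypd3, a surface protein of suprabasal keratinocytes, rose by 0.62 (SE 0.091, edgeR adjusted p = 0.0052).

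Sbsn, which codes for suprabasin of suprabasal keratinocytes, fell by 0.53 on the log2 scale (SE 0.097, edgeR adjusted p = 0.011), from 918 ± 81.8 to 636 ± 64.3 CPM. The other called genes of this list were Tgm1, higher, and Calml3, Cst6, Klk5, Scel, Spink5 and Tgm5, lower. Leaving out each library in turn gave 3 to 5 genes higher and 2 to 9 lower. The lower count was 2 without control b or control d, 3 without control a or control c, 4 without UVB a, and 9 without UVB c. Late differentiation genes thus went both ways while Krt1 and Krt10 were not called.

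Desmosomes are the junctions on which keratin filaments anchor. Of 14 tested desmosome components, 1 was called higher and 2 lower, and the median was 0.051. Dsg3, a desmoglein of the lower layers, rose from 247 ± 14.6 to 348 ± 26.9 CPM, by 0.50 on the log2 scale (SE 0.074, edgeR adjusted p = 0.0058). Evpl, which codes for envoplakin, was called lower at -0.40 (SE 0.10), and Dsg4, a desmoglein of upper epidermis and hair, at -1.28 (SE 0.33). These last calls were kept in 2 of the 7 fits that left out 1 library, for either gene. Evpl kept its call only without control a or UVB a, and Dsg4 only without control c or UVB c.

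Of 22 tested transcription factors and signalling genes of epidermal differentiation, 3 were called lower, with a median of -0.073. Notch2, a receptor of the Notch pathway that acts in the switch to suprabasal fate, fell by 0.30 (SE 0.055, edgeR adjusted p = 0.010). It kept its call in all 7 fits that left out 1 library. Prdm1 at -0.47 (SE 0.13) kept its call only without UVB c, and Pou2f3 at -0.72 (SE 0.21) in none of the 7. Tp63, Klf4 and Notch1 were not called, at -0.089, -0.011 and -0.11.

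Of 11 tested filament and keratin partner genes, 2 were called higher and 0 lower, with a median of 0.055. Sfn, which codes for the 14-3-3 protein stratifin of stratified epithelia, rose from 398 ± 42.2 to 658 ± 74.0 CPM, by 0.73 on the log2 scale (SE 0.10, edgeR adjusted p = 0.0046). Des, which codes for the muscle filament desmin, was called higher at 0.57 (SE 0.13) and lost that call without control b, control d, UVB a or UVB b.

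Of 8 listed basal and stress keratins only 4 were found and tested, so the list is covered in part. Among these 4, Krt14 was called higher and Krt75 lower. Krt14 rose from 5100 ± 478 to 7059 ± 343 CPM, by 0.47 on the log2 scale (SE 0.099, edgeR adjusted p = 0.017), and lost its call without control c or UVB c. Krt5 and Krt17 were not called, at -0.021 and -0.043. None of the 4 tested simple epithelial keratins, Krt7, Krt8, Krt18 and Krt23, was called, with log2 fold changes from -0.57 to 0.32.

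**Figure D5:**
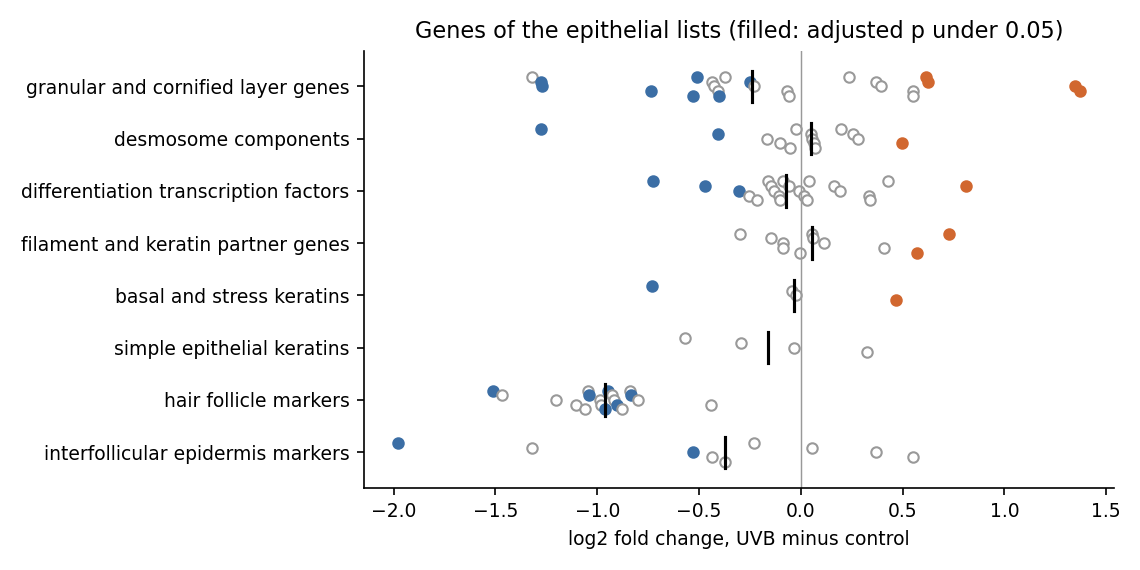
The edgeR log2 fold change (UVB minus control) of each tested gene in 8 lists, filled where the gene was called (orange higher, blue lower), with a black bar at the list median. The granular and cornified layer genes run to both sides of 0, and all 19 hair follicle markers lie below it.

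The genes most alike in pattern to Krt77 were sought among 11315 genes by Pearson correlation of log2 CPM over the 7 libraries. All share the same libraries and group difference, so the values are a description only. Lce1l, a late cornified envelope gene, came first at r = 0.993, with 20.8 ± 2.57 CPM in controls and 9.40 ± 1.16 in UVB libraries. Vps35l at 0.990 and the small heat shock gene Hspb8 at 0.989 followed. The most opposite were Tmed10 at -0.999, Slc39a1 at -0.997 and Chek2 at -0.993. Of the other members compared, Krt80 was closest to Krt77 at 0.928, and Krt79 was most opposite at -0.817. Krt1 stood at -0.621, Krt78 at -0.598, Krt13 at -0.455, Krt4 at -0.146 and Krt10 at -0.022.

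For Krt10, whose values do not separate the groups, the most alike genes were Clca2 at 0.974, Abi1 at 0.967 and Hspb1 at 0.951. Its partner Krt1 stood at 0.780 and Krt78 at 0.746, above Krt13 at 0.511 and Krt4 at 0.250. For Krt79 the most alike were Brcc3 at 0.990, Tmpo at 0.978 and Suz12 at 0.975. The members most alike to Krt79 were Krt1 at 0.457 and Krt78 at 0.326.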

How the data were processed

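The 4 control and 3 UVB libraries were grouped by their treatment label. The deposited tables hold expected counts, which the authors name raw and which are not normalised, and TPM values, which the authors corrected for transcript length. The submitters' processing notes name FastQC, Trimmomatic, DRAGEN, Picard and the build rn7. The role of each, the gene annotation used and whether strand was counted are not given in the sources used here. Of the deposited counts 12.5% were not whole, but those of all 9 members were. Commas inside gene names shift cells, and reading each row from its right end recovered its 7 values. Of the rows, 5 were left out of either table for a missing value. Columns name the group and no replicate number of the labels, so libraries carry letters, which pair nothing.

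After rounding, edgeR 4.0.16 under R 4.3.3 gave the robust quasi-likelihood test, with TMM factors and filterByExpr by group. P-values are two-sided and adjusted by Benjamini-Hochberg over all 13709 genes tested, with a threshold of 0.05. Rounding of counts that were not whole was part of the planned test. The SE of a log2 fold change is its size over the square root of F. CPM uses TMM library sizes, and likeness used a prior count of 2 and genes with a mean count of at least 50. Alternatives used DESeq2 1.42.0, limma 3.58.1 with voom or on log2(TPM + 1), other scalings and filters, and each library left out. The edgeR test, DESeq2 and limma with voom were first run on simulated data with known changes. The other alternatives were not run on simulated data.

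The members and lists were chosen with earlier results of these data known. Named genes were the 9 members, their keratin neighbours, and the 2 list genes with the smallest p and every gene called, up to 4 per list. Added to these were the 3 genes most alike to Krt77, Krt10 and Krt79, and the 3 least alike to Krt77. The other genes named (further called list genes, called keratins, Dlx3, Hoxc13, Msx2, Tp63, Klf4, Notch1, Krt5, Krt17) and the pair ratios were picked after the values had been seen. A called gene of the list of transcription factors and signalling genes is not reported here.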

Additional observations from a re-analysis of the deposited data

Results flagged for a closer look

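In groups of 4 controls, the gap between the highest or lowest library and the next was compared with the whole range for 44 values. In 6 of them 1 library stood apart, beside about 2.2 that chance would give for independent values. The values are not independent, so no excess is read from this. Krt77 enters its ratio to Krt1, and Krt7 is among the conjunctiva and goblet cell markers. Krt77 in control b was at 85.0 CPM, against 27.2 to 32.0 CPM in the other controls, and the ratio of Krt77 to Krt1 in that library was 0.0290, against 0.0108 to 0.0136. The ratio of Krt5 to Krt14 was 0.745 in control d. Control a was low for Krt7, at 28.3 CPM, for Notch2, at 164 CPM, and for the summed conjunctiva and goblet cell markers, at 48.9 TPM.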

How the results depend on the processing

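Over 20 alternatives, Krt77 and Krt80 kept their direction and their call in every one, and Krt13 and Krt79 kept their direction and were never called. All of these fits reuse libraries on which the members were chosen, so a kept call gives no independent support. Krt2 kept its direction in 19 and lost its call in 5 of them (with an adjusted p under 0.01, or with 1 of 4 libraries left out, namely c or d of the controls, or b or c of the UVB group). It was not tested at a mean count of at least 50. Direction turned for Krt10 without UVB c (-0.10, with 0.21 at most when another library was left out) and for Krt4 without UVB a (-0.032, likewise 0.21 at most), neither of them called. The cause was not tested.

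DESeq2 called 2 members higher (Krt1 and Krt78), and 16 keratins lower and 3 higher. With log2(TPM + 1) without a filter 2 keratins were called higher. At an adjusted p under 0.01, 383 genes were called, 3 keratins lower and 0 higher. With each library left out, 851 to 1898 genes were called, beside 1787 with all libraries. The lower numbers were 1214 without UVB a, 1168 without UVB c, 1097 without control b, 1047 without UVB b, 943 without control d and 851 without control c. Members called lower ran from 2 to 3 and higher from 0 to 1, the 1 being Krt78 without UVB b. Keratins called lower ran from 5 to 22 (22 without UVB c, 5 or 6 without control b, control d, UVB a or UVB b). Keratins called higher ran from 0 (without control c) to 2 (without control d or UVB b). In these fits a group keeps at least 2 libraries. No paired analysis was possible because replicate numbers of the labels are missing from the column names. Depth limits Krt2 and, in UVB libraries, Krt77, which rest on 12 to 92 counts per library.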
